A study of Xenopus laevis with 8 samples.

Results

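The Hox genes of the *Xenopus laevis* hindlimb bud were described here across 4 arrays of ethanol-treated and 4 arrays of cyclopamine-treated tadpoles. Members were all probe sets whose annotated symbol starts with hoxa, hoxb, hoxc or hoxd followed by a paralog number. They were 29 of 15491 probe sets and covered 21 genes: 6 of cluster A, 5 of cluster B, 5 of cluster C and 5 of cluster D. Of these genes, 8 belonged to paralog groups 9 to 13 and 13 to groups 1 to 8. Of the 29 probe sets, 1 matched hoxa2.S and hoxa2.L together and was kept apart from the 21 genes. A RefSeq gene table of the species lists 56 Hox symbols, so that most members of the family were not measured under their own name. *X. laevis* carries copies of many genes from its parental subgenomes, marked .L and .S, and 9 of the genes had the ending .L, 10 had .S and 2, hoxb9 and hoxd9, had none.

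Hox genes encode homeodomain transcription factors that give cells a position along the body and limb axes. In vertebrates they lie in 4 clusters, and their order in a cluster, which the paralog number follows, matches the order in which they are used from head to tail. In mouse and chick limb buds the 5′ genes of clusters A and D, groups 9 to 13, pattern the limb from its upper segment to the digits. In the same species, late expression of the 5′ Hoxd genes at the posterior edge of the bud is tied to Sonic hedgehog (SHH): these Hox proteins act on the limb enhancer of Shh, and SHH signalling in turn maintains their distal expression.

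All tadpoles had reached stage 52, at which the hindlimb is still a small bud, and were held for 24 h either in cyclopamine at 1 µg/ml or in the ethanol vehicle. Cyclopamine binds Smoothened, the membrane protein that carries the hedgehog signal into the cell. Each array held RNA of 1 pool of 18 to 22 hindlimb buds, so that a value averages over animals and over all cell types of the bud, and fewer cells of a type cannot be told apart from less RNA per cell. The arrays form 4 pairs of ethanol and cyclopamine pools. Clutch A supplied the pools of pairs 1 and 2, clutch B those of pairs 3 and 4, and no strain, sex or transgene is labelled. The labels also give Group 1 for pairs 1 and 3 and Group 2 for pairs 2 and 4, without saying what a group is. Intensities are given as log2 values after scaling the arrays to the same distribution. Values under 5.45, the 20th percentile of all intensities, were set to that floor and have no order below it. Probe sets bind with different strength, so the level of a gene was not set against that of another.

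The hindlimb genes pitx1.L and tbx4.L were above the floor on all 8 arrays. pitx1.L, which directs hindlimb identity, was at 10.71 to 12.18 on the 8 arrays and tbx4.L, the T-box gene of the hindlimb, at 6.39 to 7.09, whereas tbx5.L, the T-box gene of the forelimb, was at the floor on all 8 arrays and tbx5.S on 7 of 8. The mean level of the 2 neural tube genes measured lay between 5.45 and 5.95, at or near the floor. Of these, dbx1.S was at 6.46 on ethanol array 1 and at the floor on the other arrays. cdx1.S and cdx4.L, regulators of Hox genes in the tail end of the embryo, were at the floor on every array. Because probe sets bind with different strength, a level at the floor does not show that a gene was silent. Markers of cartilage, muscle, epidermis, red blood cells, nerve and endothelium were also measured, and their mean log2 levels over the 8 arrays spanned 8.12 to 9.34, 6.81 to 8.10, 7.92 to 9.09, 8.81 to 9.46, 7.28 to 7.77 and 6.56 to 7.19 in that order. Genes at the floor on all 8 arrays, 3 of 12 for nerve and 1 of 7 for red blood cells, were left out of these means. The nerve mean was carried by pmp22.L, at 11.79 to 12.92, pmp22.S and gap43. elavl3.L, elavl4.L, mbp.S, tubb3.L and sox10.L lay between 5.45 and 6.35.

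In ethanol-treated buds, 13 of the 21 Hox genes were above the floor on 4 of 4 arrays, 6 on 1 to 3 arrays, and 2 on none. Over all genes and unnamed probe sets, 73.7% were above the floor on 4 of 4 ethanol arrays and 12.4% on none. The counts differed by paralog number and by cluster. Of groups 9 to 13, 7 of 8 genes were above the floor on every ethanol array, and the remaining gene, hoxc12.L, on 1. Of groups 1 to 8, 6 of 13 were above it on every array, 5 on some and 2, hoxa2.S and hoxb5.S, on none. The probe set shared by hoxa2.S and hoxa2.L, above the floor on all 8 arrays, was not in these counts. Cluster D had 5 of 5 genes above the floor on every ethanol array, cluster A 4 of 6, cluster C 3 of 5 and cluster B 1 of 5. These are descriptions of a few genes per cluster and of their probe sets, and no test was made across genes. A gene with several probe sets counts as above the floor on an array where any of them is. The counts by cluster and paralog number were made at this floor only. With the floor at the 10th percentile, 18 of the 21 genes were above it on 4 of 4 ethanol arrays in place of 13.

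**Figure D1:**
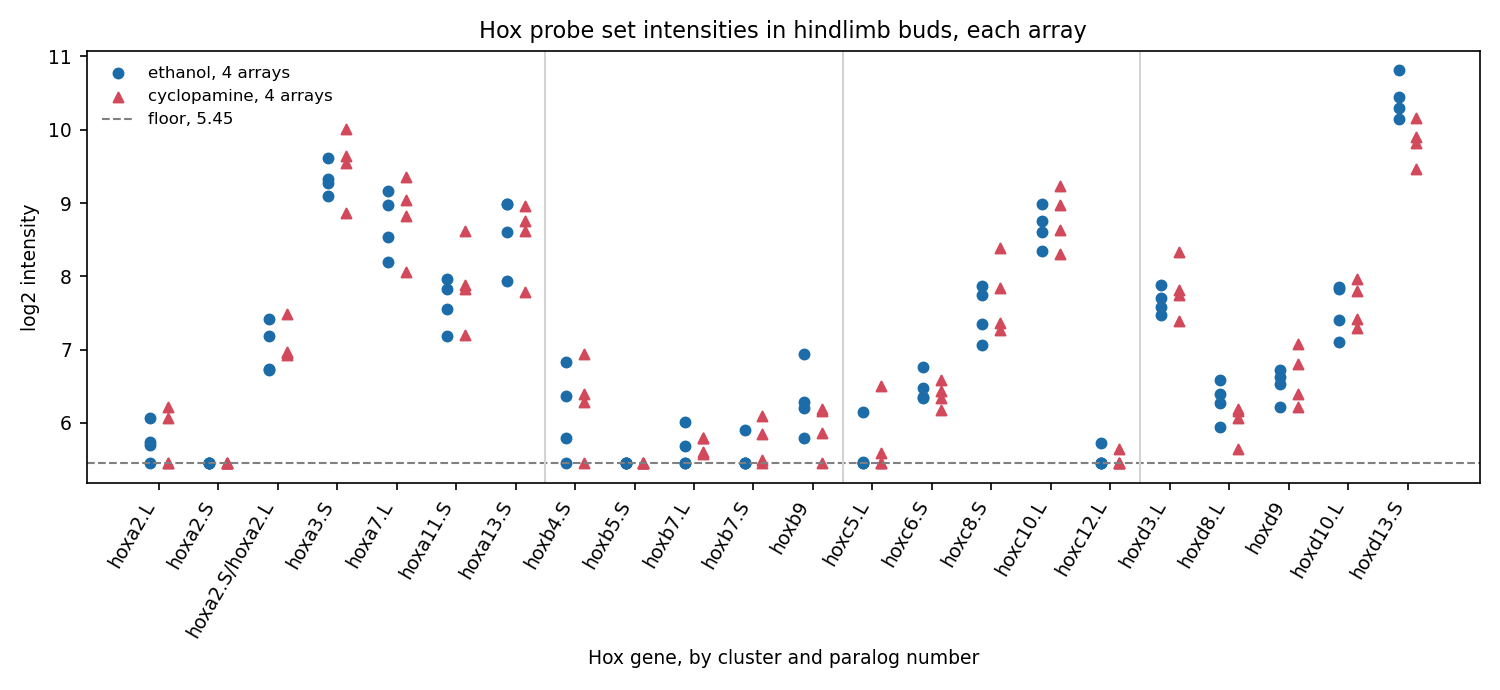
Log2 intensity (vertical axis) of each Hox gene on each array, with genes along the horizontal axis by cluster and paralog number and grey lines between clusters A, B, C and D. Circles are the 4 ethanol arrays, triangles the 4 cyclopamine arrays and the dashed line the floor of 5.45. Each cluster B gene has at least 1 array at the floor of 5.45, though hoxb4.S and hoxb9 reach 6.94, while all 5 cluster D genes lie above it on every array, and the ethanol and cyclopamine points of most genes overlap. For hoxd13.S only the lowest ethanol array, at 10.14, is below the highest cyclopamine array, at 10.16.

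Group 13, which shapes the digits in mouse, was measured through hoxd13.S and hoxa13.S. hoxd13.S was at log2 levels of 10.45, 10.30, 10.81 and 10.14 on ethanol arrays 1 to 4 and at 10.16, 9.47, 9.82 and 9.90 on cyclopamine arrays 1 to 4. The cyclopamine array was lower than its ethanol partner in every pair, and across pairs the groups overlapped by a narrow margin. hoxa13.S was at 8.60, 7.94, 8.98 and 8.98 with ethanol and at 8.76, 7.79, 8.62 and 8.96 with cyclopamine. For hoxa13.S array 2 was the lowest of each group, and the groups overlapped over nearly their whole range.

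Group 11 acts in the middle limb segment in mouse, and hoxa11.S was its only member on the array. Its log2 levels were 7.96, 7.19, 7.82 and 7.56 with ethanol and 7.82, 7.20, 7.88 and 8.62 with cyclopamine. Cyclopamine array 4 stood above the other 7 arrays, which overlapped. hoxc12.L, a posterior gene of cluster C, was above the floor on 1 ethanol array, at 5.72, and on 1 cyclopamine array, at 5.64, so that its level is known only as a bound on the other 6.

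Group 10 is needed for the upper hindlimb segment in mouse. hoxc10.L was at log2 levels of 8.98, 8.75, 8.61 and 8.35 with ethanol and at 8.97, 8.31, 8.63 and 9.23 with cyclopamine. hoxd10.L was at 7.41, 7.85, 7.83 and 7.10 with ethanol and at 7.80, 7.42, 7.29 and 7.97 with cyclopamine. In both genes cyclopamine array 4 was the highest of the 8 arrays, and the other cyclopamine arrays lay within the ethanol range or just below it.

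Group 9 genes act in the trunk and in the early limb field. hoxd9 was at log2 levels of 6.72, 6.22, 6.53 and 6.62 with ethanol and at 6.81, 6.39, 6.22 and 7.07 with cyclopamine, and the groups overlapped. hoxb9 was at 5.79, 6.28, 6.20 and 6.94 with ethanol and at 5.86, 5.45, 6.16 and 6.19 with cyclopamine, of which 5.45 is the floor. Ethanol array 4 was the highest for hoxb9, and the remaining arrays of the groups overlapped.

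Of the genes of groups 1 to 8, which pattern the hindbrain, neck and trunk, 6 were above the floor on all 8 arrays. These were hoxa3.S, which acts in the pharyngeal arches, hoxd3.L of the neck region, and the trunk genes hoxc6.S, hoxa7.L, hoxc8.S and hoxd8.L. Their ethanol means were 9.33 ± 0.21 (SD, n = 4) for hoxa3.S, 7.66 ± 0.18 for hoxd3.L, 6.48 ± 0.20 for hoxc6.S, 8.72 ± 0.43 for hoxa7.L, 7.51 ± 0.37 for hoxc8.S and 6.29 ± 0.27 for hoxd8.L on the log2 scale. The spread between ethanol pools was thus 0.18 to 0.43. hoxb4.S was above the floor on 6 of 8 arrays, hoxa2.L on 5, hoxc5.L and hoxb7.S on 4 each, and hoxb7.L on 6. The probe set shared by hoxa2.S and hoxa2.L was above the floor on all 8 arrays, at 6.72 to 7.48.

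The comparison of cyclopamine with ethanol asked which Hox genes differed after 24 h of exposure to an inhibitor of the hedgehog signal. hoxd13.S had the largest log2 difference in size among the Hox genes, -0.59 (SE 0.19), a 1.5-fold lower mean. The other 19 members tested had log2 differences between -0.39 and 0.25. None of the 20 passed an adjusted p of 0.05 in limma with Benjamini-Hochberg adjustment over all 12380 genes and probe sets, of which 2, or 0.0162%, passed. At an unadjusted p under 0.05, hoxd13.S was the only Hox gene lower and none was higher, where 3.88% of all tested were lower and 2.4% higher. The adjusted p of hoxd13.S was 0.642 in limma, with an unadjusted p of 0.0138. It was also the only Hox gene lower in 4 of 4 pairs, against 9.41% of all tested, and no Hox gene was higher in 4 of 4, against 6.47%. With 1 of 20 members, each count is near what these shares of all genes give. No Hox gene was lower or higher with no overlap between the groups, against 2.31% and 1.2% of all. Leaving out an array in turn moved the log2 difference of hoxd13.S between -0.69 and -0.46. Blocking on the pair gave it an adjusted p of 0.519 in limma.

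The size of the hoxd13.S difference varied between pairs of the same clutch. It was -0.29 and -0.82 on the log2 scale in pairs 1 and 2 of clutch A, and -0.98 and -0.24 in pairs 3 and 4 of clutch B. hoxa13.S, its paralog in cluster A, differed by 0.15, -0.15, -0.35 and -0.02 in the same pairs, with a mean of -0.09 (SE 0.31). In each pair the hoxd13.S difference lay below that of hoxa13.S, by 0.45, 0.67, 0.63 and 0.21. Among the 19 other members tested, the hoxd13.S difference was the lower in 4 of 4 pairs against 15, with mean gaps of 0.83, 0.66 and 0.70 to hoxa11.S, hoxd10.L and hoxc10.L. It was not against 4: hoxc5.L, hoxc6.S and hoxd8.L were lower than hoxd13.S in 1 pair each and hoxb9 in 2. These comparisons were chosen after the values were seen and have no test. Among the 15, hoxa2.L, hoxb4.S, hoxb7.S and hoxc12.L had pairs with each array at the floor, which fixed their difference there at 0.00.

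The other cluster D genes did not share the direction of hoxd13.S in every pair. Those with a known ending, hoxd3.L, hoxd8.L and hoxd10.L, belong to the .L copy of the cluster. hoxd10.L differed by 0.39, -0.44, -0.54 and 0.87 on the log2 scale in pairs 1 to 4, with a mean of 0.07 (SE 0.22). hoxd9 had a mean difference of 0.10 (SE 0.20) and hoxd3.L of 0.16 (SE 0.20). hoxd8.L had -0.28 (SE 0.17), with pair values of 0.25, -0.23, -0.63 and -0.51. Outside cluster D, hoxb9 had the largest negative mean, -0.39 (SE 0.26), from -0.83 in pair 2 and -0.74 in pair 4 beside 0.07 and -0.05 in the other pairs. It was at the floor on cyclopamine array 2, and its mean difference was -0.17 without ethanol array 4, -0.23 without cyclopamine array 2 and -0.71 with the floor at the 10th percentile. hoxa11.S had the largest positive mean, 0.25 (SE 0.30), from 1.06 in pair 4 beside -0.14 to 0.06 in the other pairs, and was at 0.00 without cyclopamine array 4.

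**Figure D2:**
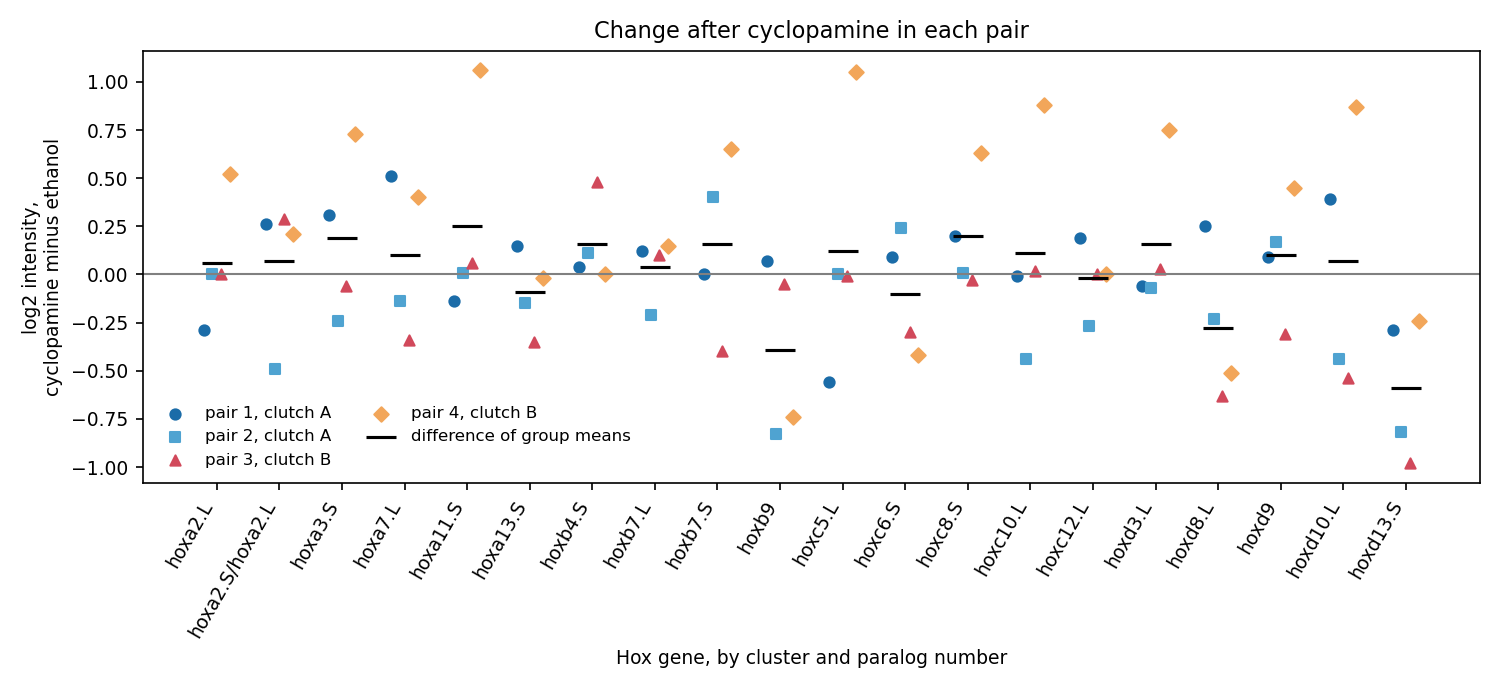
Log2 intensity of the cyclopamine array minus that of its ethanol partner (vertical axis) for each of the 20 Hox members tested (horizontal axis). Each symbol is a pair, coloured by clutch, and the black bars are the differences of the group means. Only hoxd13.S has all 4 pairs below 0, from -0.24 to -0.98, and the pair 4 points of hoxa11.S, hoxc5.L, hoxc10.L and hoxd10.L lie between 0.87 and 1.06.

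Over the 20 members, the median log2 difference was 0.09, with 14 above 0 and 6 below, beside 0.00 over all genes tested. The median was 0.03 for the 8 genes of groups 9 to 13 and 0.11 for the 12 members of groups 1 to 8. By pair the median of the 20 was 0.09, -0.15, -0.04 and 0.43, so that pair 4 stood apart. Without cyclopamine array 4 the median was -0.04, with 5 members above 0 and 13 below. Without ethanol array 4 it was 0.01, with 10 above 0 and 8 below. The direction of the family as a whole therefore rested on the arrays of pair 4.

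Cyclopamine array 4 also stood out within its group. Among the 13 Hox members above the floor on all 8 arrays, cyclopamine array 4 was the highest of the cyclopamine arrays for 9, where this held for 33.1% of all such genes and probe sets. Cyclopamine array 2 was the lowest for 8, against 33.5%, and ethanol array 2 was the lowest of the ethanol arrays for 6, against 29.5%. Tissue markers differed between these pools too. The mean log2 level of 5 cartilage genes was 9.34 on cyclopamine array 4 and 8.12 to 8.65 on the other arrays. The mean of 10 epidermal genes was 7.92 on cyclopamine array 4, the lowest of the 8, and 9.09 on cyclopamine array 2, the highest. It was 8.06 on ethanol array 1 and 8.25 on cyclopamine array 1. Of these genes cldn4.L, dsc3.S and epcam.L were lowest on cyclopamine array 4. In contrast, dsp.L, dsp.S, epcam.S and krt19.L were lowest on ethanol array 1 and krt19.S on cyclopamine array 1, and grhl3.L and tp63.L were at the floor on several arrays. The mean of 4 limb mesenchyme genes was 8.62 on cyclopamine array 4, 8.05 on ethanol array 2 and 7.88 on cyclopamine array 2, and 8.35 to 8.51 on the others. Of these 4, pitx1.L at 12.18 and tbx4.L at 7.09 were highest on cyclopamine array 4, while msx1.L at 9.06 and msx1.S at 6.15 were not. The mean of 19 muscle genes was highest on cyclopamine array 2, at 8.10, and was 7.92 on cyclopamine array 4 and 6.81 on ethanol array 1, the lowest. No cartilage, epidermal, mesenchyme or muscle gene passed the adjusted test with cyclopamine, and the part of tissue makeup in the Hox values was not tested. hoxd13.S was the lowest of its group on cyclopamine array 2, at 9.47, and on cyclopamine array 4, at 9.90, it was close to its cyclopamine mean of 9.84. On the same array hoxa11.S was at 8.62, above its cyclopamine mean of 7.88, and hoxc8.S at 8.38, above its cyclopamine mean of 7.71.

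**Figure D3:**
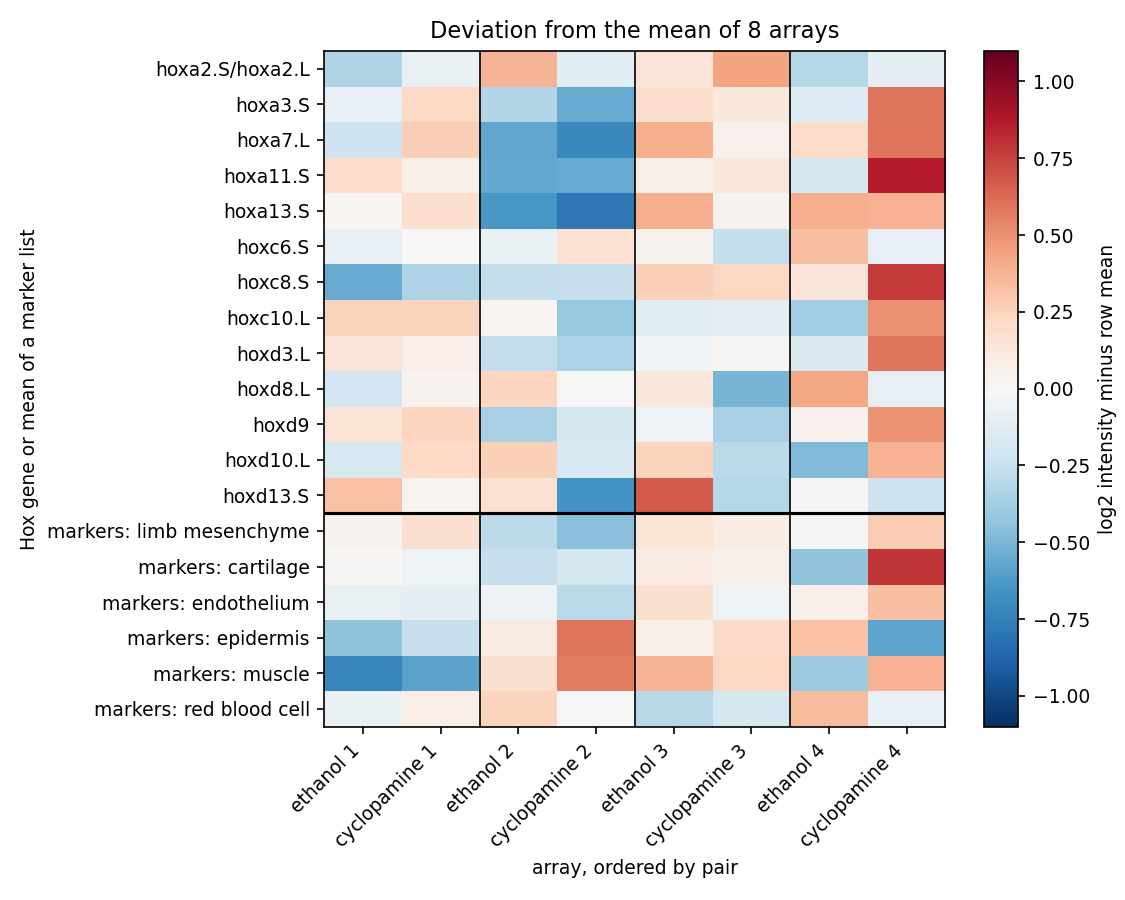
Log2 intensity minus the row's mean of 8 arrays, in colour (red above, blue below), for the 13 Hox members above the floor on all 8 arrays and, under the black line, the mean of 6 lists of tissue markers. Columns are arrays ordered by pair. Most Hox rows are red on cyclopamine array 4, up to 0.86 for hoxa11.S, and the cartilage row is at 0.78 there, while the array 2 columns are blue for hoxa7.L, hoxa11.S and hoxa13.S. The hoxd13.S row is at -0.23 on cyclopamine array 4 and -0.66 on cyclopamine array 2.

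Beside treatment, the labels give the clutch and the group of a pool. Clutch was compared, with a single clutch on each side, and the groups were not compared. The methods describe tanks of both clutches on each exposure day. The pools of a pair share exposure day and extraction batch, but the labels do not name the day or batch of a pair. A difference between the clutches therefore cannot be told apart from day or batch. hoxc8.S, a trunk gene, was at log2 levels of 7.06, 7.35, 7.27 and 7.36 in clutch A (ethanol 1 and 2, cyclopamine 1 and 2) and at 7.87, 7.75, 7.84 and 8.38 in clutch B (ethanol 3 and 4, cyclopamine 3 and 4). hoxb4.S, which marks the hindbrain and neck level, was at 6.36, 6.83, 6.40 and 6.94 in clutch A and at 5.80, 5.45, 6.29 and 5.45 in clutch B, where 5.45 is the floor. The clutches did not overlap for these 2 of 20 members, in opposite directions, against 11.6% of all genes tested.

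The clutch B minus clutch A difference, with treatment as a covariate, was 0.70 (SE 0.14) for hoxc8.S, with an adjusted p of 0.0621 in limma, and -0.89 (SE 0.23) for hoxb4.S, with an adjusted p of 0.0946. Each clutch holds 2 pairs, and this fit takes their 4 arrays as independent. With the pair as a random block, an alternative added after the data were seen, the adjusted p were 0.0586 and 0.0915 in limma and the same 6 members were under an unadjusted p of 0.05. The correlation within pairs that it used, estimated over all genes, was -0.02. That fit was thus nearly the same as without a block and cannot serve as a separate check of independence. No Hox member passed in either fit, against 1.28% of all genes tested without the random block and 1.42% with it. Without the block and at an unadjusted p under 0.05, 5 members were higher in clutch B, against 9.8% of all, and 1, hoxb4.S, was lower, against 12.1%. Beside hoxc8.S, the higher members were hoxa2.L at 0.48, hoxa7.L at 0.62, hoxa13.S at 0.61 and hoxb9 at 0.53 on the log2 scale. The probe set shared by hoxa2.S and hoxa2.L, above the floor on all 8 arrays, differed between clutches by only 0.08 (SE 0.21). hoxa2.L was at the floor on 3 of 4 clutch A arrays, and with the floor at the 10th percentile it differed by 0.81 and hoxb9 by 0.85, where hoxb9 no longer had an unadjusted p under 0.05 (0.0587 in limma). For hoxa7.L, hoxa13.S and hoxb9 this rested on single arrays: without ethanol array 4, cyclopamine array 2 or cyclopamine array 4, 3 members stayed under an unadjusted p of 0.05 in limma, namely hoxa2.L, hoxb4.S and hoxc8.S. hoxd13.S differed between clutches by 0.08 (SE 0.19). Among the tissue markers, the mean log2 level of 4 endothelial genes was 6.56 to 6.80 in clutch A and 6.82 to 7.19 in clutch B. The clutches did not overlap in that mean, which no other marker list showed, but egfl7.S was the only gene of the 4 to separate them. egfl7.S was at 6.69 to 7.29 in clutch A and 7.46 to 7.84 in clutch B. pecam1.L and tek.S overlapped between the clutches, and flt1.L was at 5.45 to 5.46, at or near the floor. Of 59 marker genes tested over 8 lists, 3 were higher in clutch B at an unadjusted p under 0.05, against 9.8% of all. None was lower, against 12.1% of all, and none passed the adjusted test. The 3 were egfl7.S of endothelium at 0.59, col2a1.S of cartilage at 0.37 and pmp22.S of nerve and glia at 0.77 on the log2 scale. Their part in the Hox values was not tested.

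**Figure D4:**
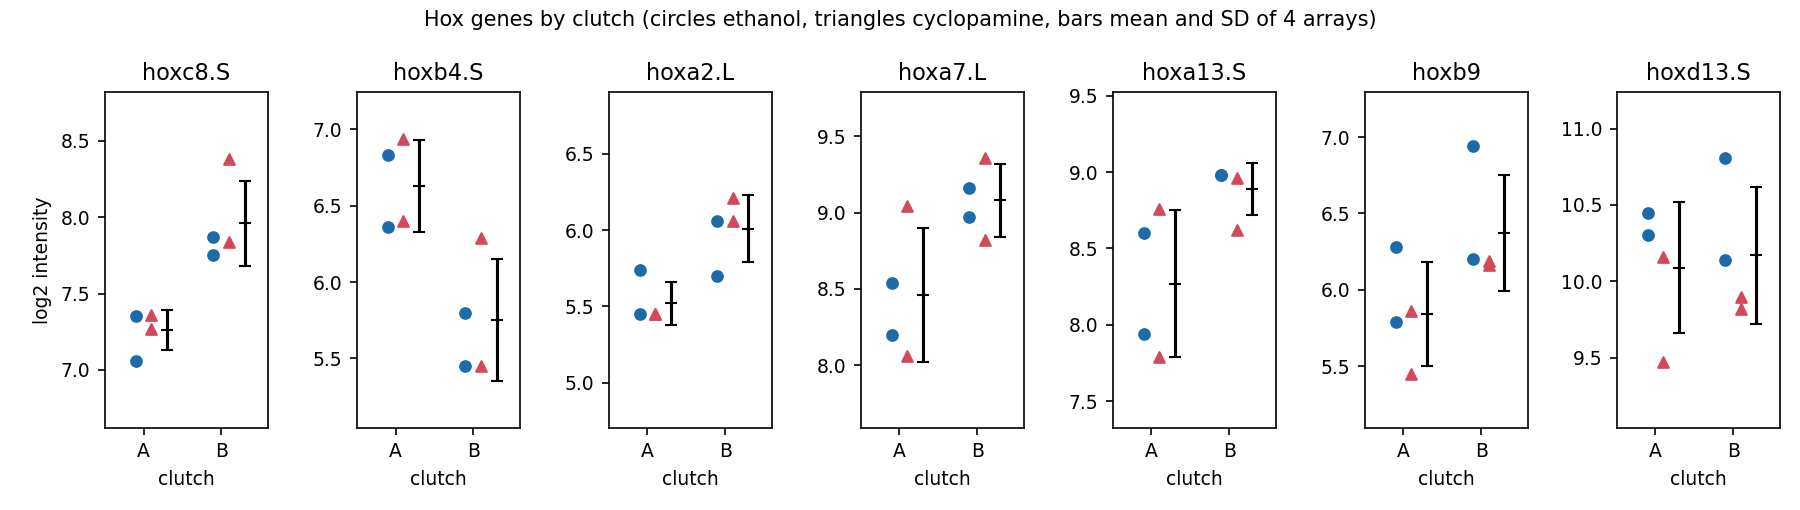
Log2 intensity (vertical axis, each panel spanning the same range of 2.2) of the 6 Hox genes with an unadjusted p under 0.05 between clutches and of hoxd13.S, in clutch A and clutch B. Circles are ethanol arrays, triangles cyclopamine arrays, and the bars show the mean and SD of the 4 arrays of a clutch. The clutches are apart for hoxc8.S, at most 7.36 in A and at least 7.75 in B, and for hoxb4.S, and overlap for hoxd13.S.

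Whether cyclopamine acted differently in the clutches was tested with an interaction term. No Hox member passed the adjusted test, and 0.0% of all genes did. At an unadjusted p under 0.05, 1 of 20 members, hoxc6.S, was called, against 3.72% of all genes. Its difference was 0.09 and 0.24 in pairs 1 and 2 and -0.30 and -0.42 in pairs 3 and 4, and the interaction was -0.52 (adjusted p = 0.999 in limma). In pairs 1 and 2 its first probe set gave -0.03 and -0.12 and its second 0.21 and 0.60. The second was at the floor on ethanol array 2, which set the size of the 0.60. The unadjusted call ended under 6 of the 7 other processing settings and when any single array other than ethanol array 3 was left out. For hoxd13.S the interaction was -0.05, with an SE of 0.42 that is large beside the cyclopamine difference of -0.59 of that gene.

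The .L and .S copies could be compared for few Hox genes. Of hoxb7, hoxb7.L was above the floor on 6 arrays and hoxb7.S on 4, and the log2 ratio of .L to .S differed between cyclopamine and ethanol by -0.12 (SE 0.22). On 4 of 8 arrays hoxb7.S was at the floor, on 2 of them together with hoxb7.L, so that the floor set much of this ratio and nothing can be read from its test. Of the 914 genes with copies measured, 3.83% had an unadjusted p under 0.05 in limma. hoxa2.L was above the floor on 5 arrays and hoxa2.S on none, while the probe set shared by them was above it on all 8. Among all Hox genes, 5 of 9 with the ending .L and 6 of 10 with .S were above the floor on 8 of 8 arrays, beside 71.2% of all genes and probe sets. The ending itself was uncertain for hoxa11.S, since the genes beside it in the RefSeq table are hoxa9.L and hoxa13.L.

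For 5 genes several probe sets allowed a check within the gene. hoxa11.S had 4, and their log2 differences in pair 4 were 1.55, 0.39, 1.26 and 1.01, where the probe set with 0.39 was above the floor on 3 of 8 arrays. All 4 thus gave the same sign in that pair. The 2 probe sets of hoxd8.L had mean differences of -0.20 and -0.35 and the same sign in each pair. The 2 of hoxc6.S gave -0.29 and 0.10, and those of hoxd9 gave 0.15 and 0.05, with opposite signs in pair 1 (-0.15 and 0.34). The second hoxd9 probe set was above the floor on 5 of 8 arrays and was at the floor on ethanol array 1. The 2 of hoxb7.L gave -0.03 and 0.11 and opposed each other in pair 2 (-0.88 and 0.45), where the second of them was above the floor on 1 of 8 arrays. hoxd13.S, hoxa13.S, hoxc10.L and hoxd10.L rest on 1 probe set each.

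Hox proteins bind DNA together with cofactors of the TALE class (Meis, Pbx and Pknox proteins), and 6 such genes were tested. pknox1.L was at log2 levels of 9.00, 9.00, 9.02 and 8.91 with ethanol and 8.50, 8.60, 8.67 and 8.71 with cyclopamine. meis1.S, whose mouse counterpart marks the upper part of the limb, was at 8.01, 7.99, 8.36 and 8.07 with ethanol and 8.54, 8.47, 8.44 and 8.53 with cyclopamine. In each of these 2 of 6 genes the groups did not overlap, which held for 2.31% of all genes tested as lower and 1.2% as higher, and the pairs went the same way 4 times of 4, against 9.41% lower and 6.47% higher. The log2 differences were -0.36 (SE 0.08) and 0.39 (SE 0.10), with adjusted p of 0.525 and 0.582 in limma. meis2.L (-0.01), meis3.L (-0.03), meis3.S (0.07) and pbx2.L (0.25) completed the list, whose median was 0.03.

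Among 20 tested limb genes tied to SHH, none passed the adjusted test, and at an unadjusted p under 0.05 in limma 3 were lower, against 3.88% of all, and 1, shh.L, was higher, against 2.4%, with a list median of -0.14 on the log2 scale beside 0.00 over all genes. The 3 were bmp2.S, hand2.S and hhip.L. shh.L, the ligand itself, differed by 0.52 (SE 0.13) and was higher in 4 of 4 pairs, with the smallest unadjusted p of the list (0.00336 in limma). Of the direct readouts of the pathway, gli1.S was at the floor on all 8 arrays. ptch1.S, which was at the floor on 4, differed by -0.20 (SE 0.21). hhip.L differed by -0.40 (SE 0.16), at levels near the floor: 5.92 to 6.19 with ethanol and 5.45 to 6.10 with cyclopamine. grem1.L, a BMP antagonist that carries the signal from the posterior mesenchyme to the limb's edge, differed by -0.33 (SE 0.15). It was lower in 4 of 4 pairs, as were bmp2.L at -0.29 (SE 0.13), bmp2.S at -0.59 (SE 0.18), bmp4.S at -0.51 (SE 0.29) and hhip.L. Over all genes, 9.41% were lower in 4 of 4 pairs. Only shh.L of the list was higher in 4 of 4 pairs, against 6.47% of all. Of 6 hindlimb and mesenchyme genes, 1, msx2.L, was higher at an unadjusted p under 0.05, by 0.34 (SE 0.14), against 2.4% of all, and none passed the adjusted test. tbx4.L differed by 0.10 (SE 0.18) and pitx1.L by 0.15 (SE 0.31).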

How the data were processed

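The deposited values are linear intensities, 1 per probe set, which the labels call normalized; how the authors corrected the background and summarized probes, and with which software, is not stated in the sources used here. The 2% trimmed mean was 500.07 or 500.08 on every array, and medians were 191.6 to 221.0. Of 15611 probe sets, 120 controls were left out. Symbols came from the array's annotation (9304 probe sets with 1 symbol, 195 with several, 5992 with none); 9227 were found in a RefSeq table of assembly Xenopus_laevis_v10.1, used for names and neighbours, and 19 of the 21 Hox genes were found. Intensities were quantile-normalized, floored at their 20th percentile (43.7), converted to log2 and averaged over probe sets of a symbol. Of 13718 features, 1338 at the floor on all arrays were left out. The tests were two-sided, with limma 3.58.1 in R 4.3.3 on all 8 arrays without a block, and the steps were tested on simulated data. The number of arrays limits the precision. The authors chose the pairs by RNA quantity and quality, and their methods state that a pair shares clutch, exposure day and extraction batch, from which the pairing was taken; deviations from the group means correlated at 0.35, 0.51, 0.30 and -0.10 within pairs 1 to 4.

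Members and gene lists were chosen with earlier results of these data known. All Hox genes are named. Values on every array are given for those under an unadjusted p of 0.05 with cyclopamine and for groups 9 to 13 above the floor on all 8 arrays; hoxb9, hoxc8.S and hoxb4.S were added after their values were seen. Alternatives were other scalings, floors, filters and probe set rules, a pair or clutch block, a random pair block for the clutch comparison (added later), the methods' t-test, and leaving out each array. A probe set annotated xhoxc8 was not counted. Figures were drawn with matplotlib.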

Additional observations from a re-analysis of the deposited data

Results flagged for a closer look

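A Hox gene's array was far from the other 3 of its group in 6 of 40 groups checked. Where the other 3 are tied at the floor, any value above it counts as far, so no chance rate applies to this count. In 5 of the 6 groups the other arrays were at or close to the floor. These were hoxb7.S at 5.90 on ethanol array 3 and hoxc5.L at 6.15 on ethanol array 1 and at 6.50 on cyclopamine array 4. hoxc12.L was at 5.72 on ethanol array 2 and at 5.64 on cyclopamine array 1. The sixth was the probe set shared by hoxa2.S and hoxa2.L, at 7.48 on cyclopamine array 3 beside 6.93 to 6.97 on the other cyclopamine arrays.

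The response of hoxc6.S to cyclopamine differed between the clutches by -0.52 on the log2 scale, with an unadjusted p of 0.0481 and an adjusted p of 0.999 in limma. Its 2 probe sets gave mean differences of -0.29 and 0.10.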

How the results depend on the processing

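No Hox member passed the adjusted test for cyclopamine, clutch or their interaction under any alternative run. Of 485 alternative values for single Hox genes, 31 turned direction and 454 did not, and no value crossed the threshold. Values that fell to 0.00 were counted among the 454, such as hoxa11.S without cyclopamine array 4. hoxd13.S stayed between -0.69 and -0.46, with adjusted p from 0.444 to 0.986 in limma or the methods' t-test. With the replicate block the difference of hoxd13.S was -0.59 (adjusted p = 0.519 in limma), and the block changed no call. At an unadjusted p under 0.05, the Hox count for cyclopamine was 1 to 2 when single arrays were left out (hoxd8.L joined without ethanol array 1 and hoxa3.S without cyclopamine array 2), for clutch 3 to 6, and for the interaction 0 to 1. The interaction count was 0 with values as deposited, with array medians subtracted, with a floor at the 10th percentile, with no floor and log2(value + 32), with genes above the floor on all 4 arrays of a group, and with the brightest probe set. With genes above the floor on 4 of 4 ethanol arrays counted at the 10th percentile, 18 of 21 passed in place of 13.

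Differences near 0 had no stable sign. hoxb7.L was at -0.03 with its brightest probe set, 0.55 with the floor at the 10th percentile and 0.29 with no floor, and hoxb7.S at 0.53 with the lower floor. With the floor at the 10th percentile hoxc5.L was at -0.02, hoxc12.L at 0.05 and the hoxb7 ratio of .L to .S at 0.03, and with no floor hoxc5.L was at -0.08 and hoxc12.L at 0.06. When single arrays were left out, the log2 difference ranged from -0.08 to 0.17 for hoxa2.L, -0.07 to 0.20 for the shared hoxa2 probe set, -0.08 to 0.36 for hoxa7.L, -0.32 to 0.15 for hoxa13.S, -0.07 to 0.43 for hoxb4.S, -0.03 to 0.16 for hoxb7.L, -0.13 to 0.29 for hoxc5.L, -0.02 to 0.35 for hoxc8.S, -0.04 to 0.27 for hoxc10.L, -0.07 to 0.05 for hoxc12.L, -0.01 to 0.30 for hoxd3.L, -0.05 to 0.24 for hoxd9, -0.08 to 0.18 for hoxd10.L and -0.23 to 0.04 for the hoxb7 ratio; the cause was not tested.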
